A study of Danio rerio with 2 samples.

Results

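The genes described here are those whose symbols name proteins of the cytosolic ribosome. They were chosen by name: a gene belonged when its symbol, read without regard to capitals, began with rpl or rps followed by a digit, or was rpsa or one of the rplp stalk genes, and was not one of the rps6k kinases. Of the 35117 gene entries in the count tables, 84 met this rule, and 21131 entries had at least 1 transcript. The rule used names only and no measured value, though the set was chosen with earlier results of these data known. The rule also missed some genes of ribosomal proteins. Another 5 entries with transcripts, among them ube2e1 (ENSDARG00000009285, RPL15 in the name table), faua (ENSDARG00000099022, FAU in the name table) and ENSDARG00000100513 (rps27l), were not counted as members. They were ribosomal protein genes by the name table or named for fau, whose product holds Rps30. Together they stood at 13018 CPM in mutant and 11247 CPM in WT, where CPM is the transcript count scaled to a library total of 1000000, and with them the summed share given below would be 55.4% in mutant and 49.8% in WT.

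Transcripts were counted in single cells from the cartilage of juvenile zebrafish, in 1 library from nkx3.2 mutants and 1 library from wild-type (WT) fish. The mutant fish had el802 on both copies of nkx3.2, a homeobox gene of the developing jaw joint, and were labelled 22 days post fertilization, and the WT fish 21 days. The protocol text gives 21 days for both libraries, so it is uncertain whether the ages differed, and if they did, age and genotype cannot be told apart. All fish carried the fli1a:EGFP and sox10:DsRed transgenes, and live cells positive for both reporters had been sorted before capture with the 10x Genomics 3′ version 2 chemistry, in which each transcript molecule is tagged near its 3′ end with a unique molecular identifier (UMI). The number of fish behind each library was not given in the sources used here.

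The mutant library held 2005 cells and 16349558 UMIs, with a median of 7005 per cell (range 2124 to 38609). The WT library held 2057 cells and 13927936 UMIs, with a median of 5781 (range 1791 to 27090). The libraries shared 4 cell barcodes. The nkx3.2 gene itself had 676 UMIs (41.3 CPM) in the mutant library and 636 UMIs (45.7 CPM) in the WT library, and since a 3′ tag counts transcripts whether or not they carry a lesion, this does not check the labels. The 5 cartilage markers together stood at 17793 CPM in the mutant library and 28037 CPM in the WT library. Marker lists of leukocytes, pigment cells, neurons with glia, and endothelium were each below 5 CPM in both libraries, and the epithelial list stood at 167 CPM in mutant and 233 CPM in WT. The muscle list stood at 2.63 CPM in mutant and 26.8 CPM in WT. The red blood cell list had 2 UMIs in mutant and 1 in WT, with hbaa1, hbba1 and hbba2 at 0, but it held none of the embryonic globin genes. All 8 globin genes with a UMI together stood at 3.12 CPM in mutant and 777 CPM in WT, and 98.1% of these WT UMIs lay in 3 cells. With 1 library per genotype, no difference below has a replicate check and none was tested. Intervals are 95% and cover counting error only.

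A ribosome has a small (40S) and a large (60S) subunit, each built of ribosomal RNA and a fixed set of proteins that are needed in near-equal numbers. Their mRNAs are among the most abundant in a growing cell, and in vertebrates they carry a terminal oligopyrimidine (TOP) tract that places their translation under the control of the kinase complex mTORC1. Chondrocytes are secretory cells that make large amounts of collagen and proteoglycan, and depend on high rates of protein synthesis.

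Of the 84 genes, 80 had at least 10000 UMIs over both libraries, 34 of them of the 40S subunit, 42 of the 60S subunit and 4 of the stalk of the 60S subunit. These 80 are called the abundant members below, and each was seen in at least 98.1% of the cells of either library. The other 4 were far lower. The entry rps19bp1 (ENSDARG00000091124), which met the rule by name but encodes a protein that binds Rps19, had 471 UMIs in the mutant library and 277 in WT. The entry rpl7l1 (ENSDARG00000042864), a paralogue of rpl7, had 439 UMIs in mutant and 303 in WT. A second entry named rpl37 (ENSDARG00000076360), which the name table calls COA1, had 161 UMIs in mutant and 151 in WT. The entry rps8b (ENSDARG00000057368) had 1 UMI in mutant and 3 in WT, below the 100 UMIs required for a ratio, which left 83 measured members.

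Ribosomal protein transcripts made up a larger share of the mutant cells than of the WT cells. The median cell gave 53.2% of its UMIs to these genes in the mutant library (quartiles 49.4 and 56.6, range 24.5 to 75.03) and 48.0% in the WT library (quartiles 43.9 and 51.4, range 2.47 to 62.3), a difference of 5.24 percentage points. The distributions overlapped: 81.6% of mutant cells lay above the WT median, and 13.7% of WT cells lay above the mutant median. Summed over cells, the share was 54.1% (54.1 to 54.2) in mutant and 48.6% (48.6 to 48.7) in WT. These 3 WT cells, each with over 5% globin UMIs, had shares of at most 11.7%, and without them the difference of medians was 5.23 points.

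The median mutant cell held 3759 ribosomal protein UMIs and 3297 other UMIs, and the median WT cell 2736 and 3058. In these counts, not scaled for depth, the median of other UMIs differed less between the libraries than that of ribosomal protein UMIs. Each median was taken separately, and the median total was 7005 UMIs in mutant and 5781 in WT. As shares of UMIs, however, the matrix and mitochondrial genes differed by a larger factor, with mutant over WT ratios of 0.689 and 0.682. In the mutant library, the 30 cartilage matrix genes took 4.65% of UMIs, against 6.74% in WT. The 13 genes of the mitochondrial genome took 0.540% in mutant and 0.792% in WT. The 14 genes of the elongation factor list took 1.45% in mutant and 1.32% in WT, the 17 other TOP mRNAs 2.41% in mutant and 2.18% in WT, and all remaining genes 36.8% in mutant and 40.3% in WT. No eEF1A gene with at least 100 UMIs was counted in the elongation factor list. A share of UMIs is relative, and more ribosomal protein mRNA per cell cannot be told apart from less of other mRNA.

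Cells were next grouped by marker genes, using UMIs of the markers per 10000 UMIs outside ribosomal protein and mitochondrial genes, so that the measured genes did not enter the grouping. Each cell entered the first identity group whose threshold it passed, and groups with at least 30 cells in each library were compared. Another 4 groups, for S phase, for G2 with mitosis, for high sesn1 and for high hsp70, overlapped with these. The osteoblast marker group, with 16 mutant and 33 WT cells, was not compared.

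**Figure D1:**
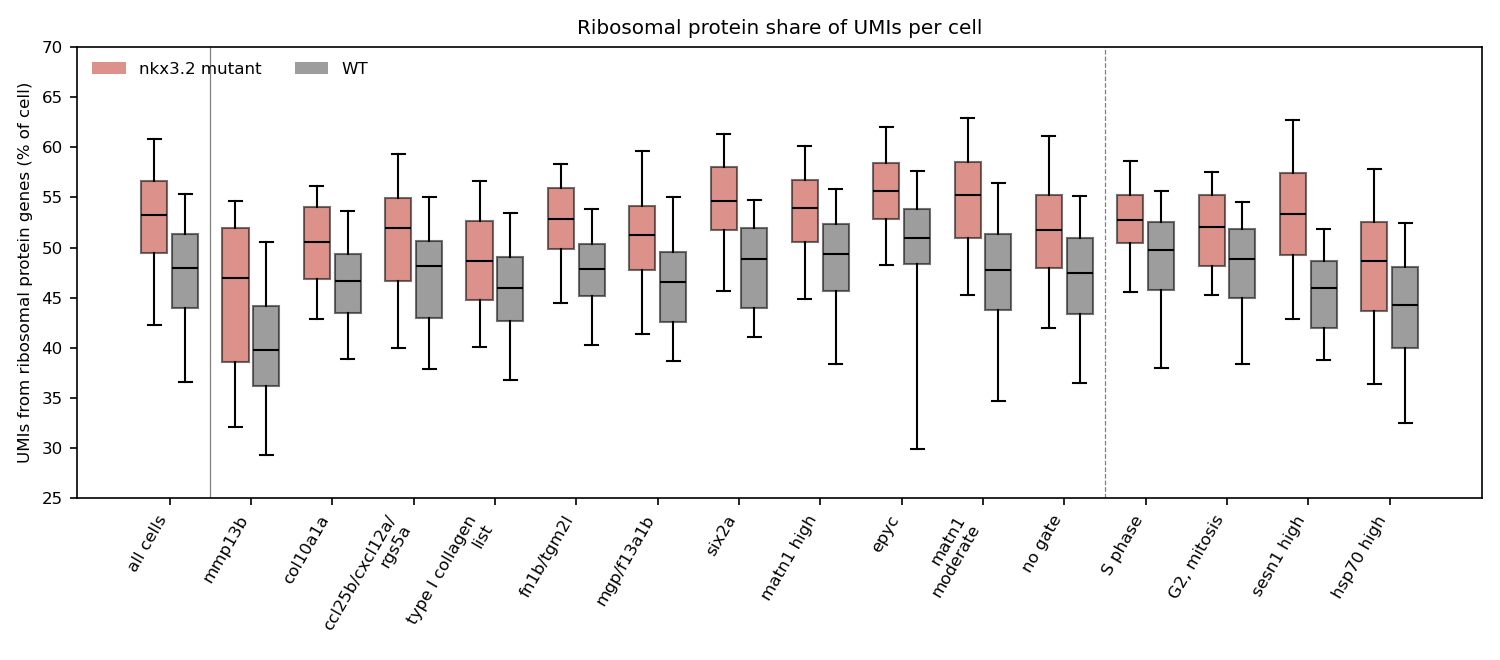
Share of each cell's UMIs (%) that came from ribosomal protein genes, for all cells, 11 identity groups and 4 state groups, with mutant boxes left of WT boxes; boxes span the quartiles, the line is the median and whiskers reach the 5th and 95th percentiles of cells. The mutant median lies above the WT median in all 15 groups, by 2.65 to 7.50 percentage points.

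The mutant median was the higher one in 15 of 15 groups. The matn1-moderate cells, with a middle level of the cartilage matrix gene matn1, differed most, with medians of 55.3% in mutant and 47.8% in WT. The matn1-high cells, the largest group, with 558 mutant and 700 WT cells, stood at 54.0% in mutant and 49.4% in WT. The cells marked by type I collagen and other fibrous genes differed least, with 48.6% in mutant and 46.0% in WT. Depth differed within groups too: the matn1-moderate cells had a median of 6828 UMIs in mutant and 4773 in WT, and the epyc cells 11980 in mutant and 8097 in WT. The marker matn1 itself had a mutant over WT CPM ratio of 0.638 over all cells. The matn1-high cells were 27.8% of mutant and 34.0% of WT cells. The matn1-moderate cells were 7.73% of mutant and 4.72% of WT cells, and the epyc cells 12.9% and 5.54%. With fixed thresholds, a group may not hold like cells in both libraries, which was not tested.

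The order of the groups was much alike in the 2 libraries. Cells with epyc, which encodes the small proteoglycan epiphycan, had the highest medians, 55.7% in mutant and 50.9% in WT. Cells with mmp13b, a collagenase gene of late hypertrophic cartilage, had the lowest, 47.0% in mutant and 39.8% in WT. The col10a1a cells, marked by the hypertrophic collagen X, stood at 50.6% in mutant and 46.7% in WT. Over the 11 identity groups, Spearman's rho between the mutant and WT medians was 0.88, with depth and group order shared between the 2 series of points. The range of group medians was 8.71 points in mutant and 11.2 points in WT, so the groups within a library spanned more than the difference between genotypes over all cells.

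The share also moved with sequencing depth. Pearson's r between a cell's share and the log10 of its UMIs was 0.49 over the 2005 mutant cells and 0.45 over the 2057 WT cells, where both measures come from the same counts. In cells under 4000 UMIs, the median share was 48.7% in mutant and 44.5% in WT. In cells of 11000 UMIs or more, it was 56.3% in mutant and 52.3% in WT. The difference lay between 3.84 and 4.99 points in the 5 depth bins, below the 5.24 points over all cells. With both libraries weighted to one mix of depth bins it was 4.51 points.

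**Figure D2:**
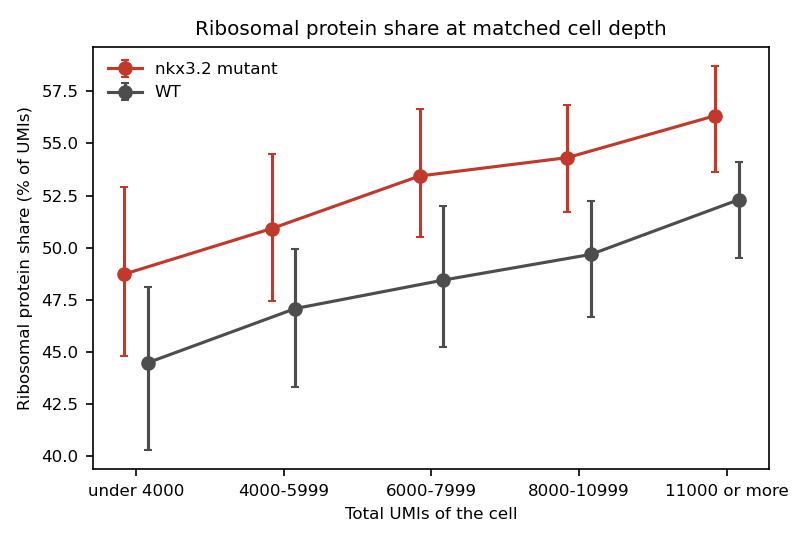
Median share of UMIs from ribosomal protein genes (%) in 5 bins of total UMIs per cell, with mutant cells in red and WT cells in grey; bars span the quartiles of cells. Both lines climb with depth, and the mutant median lies 3.84 to 4.99 percentage points above the WT median in each bin.

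Cell states had differing relations to the share in the 2 libraries. S phase cells lay 0.43 points below the other cells in mutant (difference -0.43, 122 cells) and 2.01 points above them in WT (157 cells). Cells in G2 or mitosis had a difference of -1.25 points in mutant (82 cells) and 0.86 in WT (32 cells). Both kinds of dividing cells were deeper than the rest in both libraries, with medians of 8397 UMIs in mutant and 8309 in WT for S phase. The cells outside S phase had medians of 6933 UMIs in mutant and 5644.5 in WT, a wider gap in WT. The part of depth in these contrasts was not tested.

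Cells high in sesn1, the gene of the stress sensor Sestrin 1, were 326 in mutant and 50 in WT. Their share differed from that of the other cells by 0.12 points in mutant and by -2.03 points in WT. Their median depth was 7754.5 UMIs in mutant and 4181.5 in WT, and the part of depth in this contrast was not tested. Cells high in hsp70 genes, a mark of heat shock or dissociation stress, had lower shares in both libraries, with differences of -4.94 points in mutant and -4.10 in WT. They were shallow in both, with median depths of 3646 UMIs in mutant and 3473 in WT.

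Gene by gene, nearly the whole set was higher in the mutant library, each by a small factor. The CPM ratio of mutant over WT was above 1 for 81 of 83 measured members, the others being rps20 and the second rpl37, where 40.3% of the 6855 genes with at least 100 UMIs had a ratio above 1. Only 2 members were higher by at least 25%, rps19bp1 and rpl6, where 19.6% of all genes were. The number lower by at least 20%, the same size of fold in the other direction, was 0, where 35.8% of all genes were. The median log2 ratio was 0.17 over the measured members and -0.13 over all genes.

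The summed ratio of the set was 1.11, and the members lay close around it. The abundant members ran from 0.958 for rps20 to 1.26 for rpl6. The standard deviation of their log2 ratios was 0.080, whereas that of the 190 other genes with at least 10000 UMIs was 0.48. Of the 83 measured members, 1 lay at least 25% above or 20% below the summed ratio, rps19bp1, where 60.3% of all genes and 54.2% of those 190 abundant genes did. This rule was centred on the set's own summed log2 ratio, 0.15. The median log2 ratio was -0.13 over all genes and -0.12 over the 190, so part of this contrast is built in. The interval of the ratio lay above 1 for 76 abundant members and below 1 for 1, and it held 1 for the other 3, among them rps27.2 and rpl29. Intervals are narrow at this depth, and the same count was not made for the other abundant genes.

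The same held within the identity groups, where members with at least 100 UMIs in the group were counted. In the matn1-high cells 77 of 83 members were higher in mutant, against 44.9% of all genes measured in those cells, and in the epyc cells 75 of 82 against 46%. In the matn1-moderate cells it was 79 of 80 against 34.5%, and in the six2a cells 78 of 80 against 47.4%. In the mmp13b cells it was 79 of 80 against 38.3%, and in the col10a1a cells 72 of 80 against 45.7%.

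Outside the chondrocyte markers the counts were similar. In the type I collagen cells 72 of 80 were higher, against 36.2% of all genes, and in the ccl25b, cxcl12a and rgs5a cells 71 of 80 against 43.4%. In the fn1b and tgm2l cells it was 73 of 80 against 37.7%, in the mgp and f13a1b cells 74 of 80 against 41%, and in cells that passed no identity threshold 77 of 80 against 35.3%. Of the 80 abundant members, 65 had a ratio above 1 in all 11 identity groups. How many other genes met this rule in all groups was not counted.

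**Figure D3:**
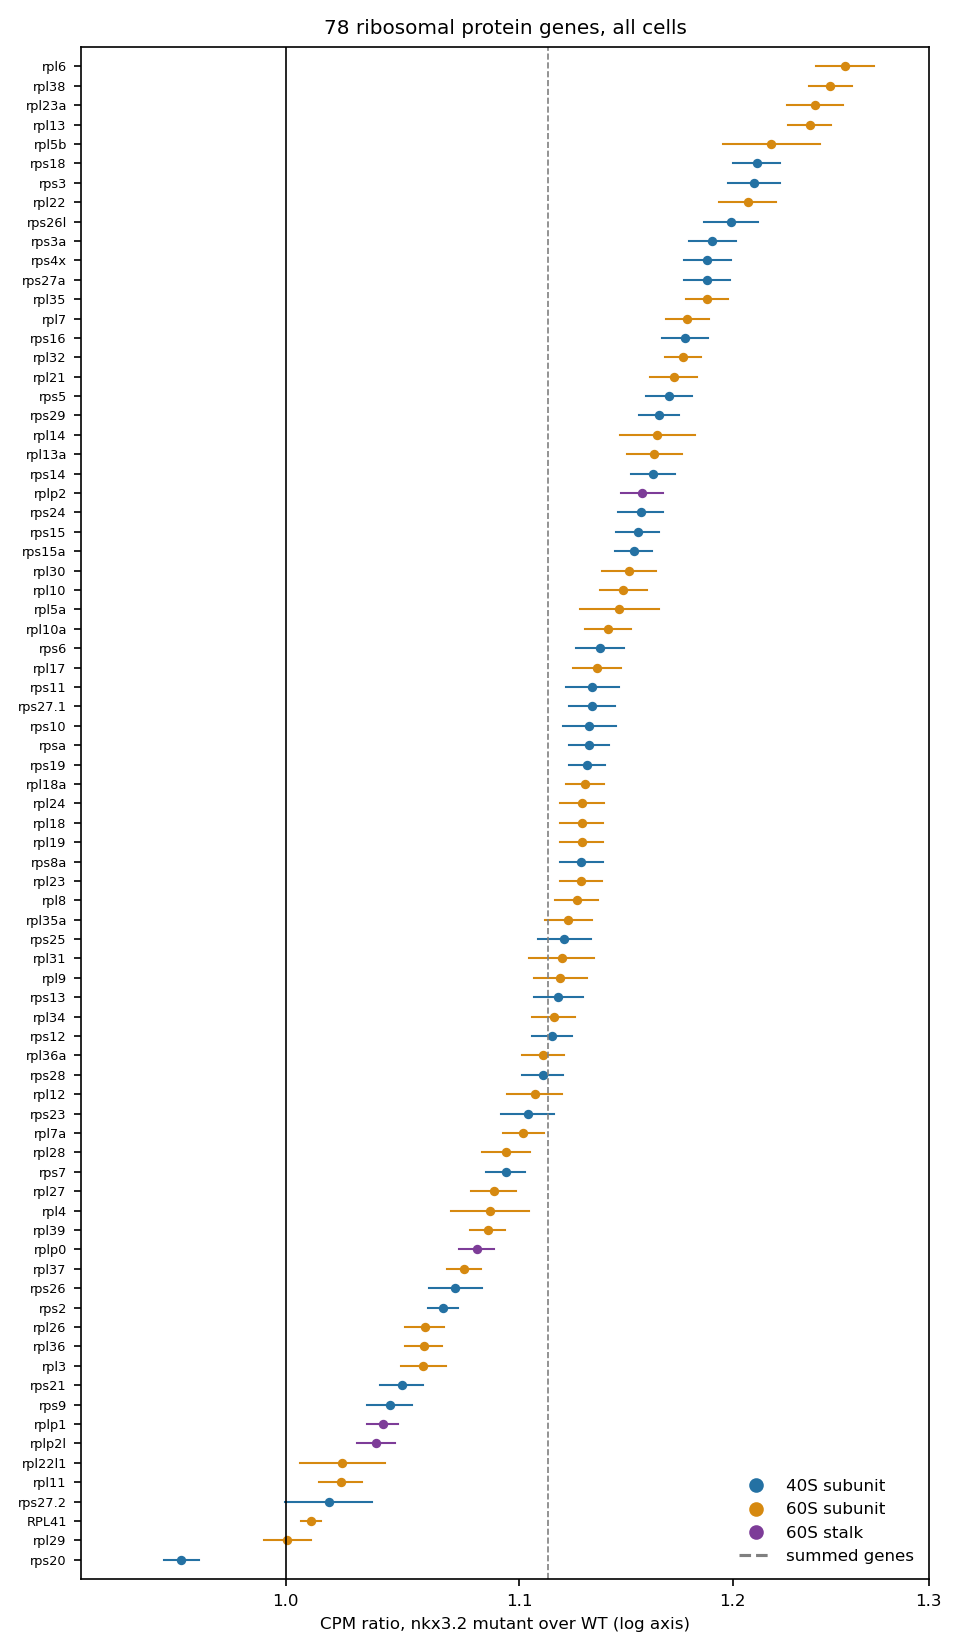
CPM ratio of mutant over WT (log axis) for 78 of the 80 ribosomal protein genes with at least 10000 UMIs, all cells, coloured by subunit; bars are 95% intervals of counting error and the dashed line is the ratio of the summed genes, 1.11. All but rps20 (0.958) lie at or to the right of 1, and rpl6 (1.26) is the highest.

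The 34 abundant genes of the 40S subunit had a median ratio of 1.13, from 0.958 to 1.21, and the 42 of the 60S subunit had a median of 1.13, from 1.001 to 1.26. The 4 stalk genes had a median of 1.06. Genes of the 40S subunit gave 41.0% of ribosomal protein UMIs in mutant and 40.7% in WT, and genes of the 60S subunit without the stalk 51.8% in mutant and 51.8% in WT. The 40S to 60S ratio, with the stalk counted in the 60S subunit, was 0.696 in mutant and 0.686 in WT, higher in mutant in 11 of 11 identity groups. The stalk gave 7.19% in mutant and 7.48% in WT, lower in mutant in 11 of 11 groups.

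The highest level of all belonged to RPL41 (ENSDARG00000092807), the gene of a very short basic 60S peptide. It stood at 29506 CPM in mutant and 29201 CPM in WT, a ratio of 1.01, below the 1.11 of the set, and its share of ribosomal protein UMIs had a mutant over WT ratio of 0.908. The 10 most abundant members held 23.8% of ribosomal protein UMIs in mutant and 25.01% in WT. For 7 of these 10 the share ratio was below 1, against 21 of the other 70 abundant members, and Spearman's rho between level and share ratio was -0.26 across the 80 genes, which are not independent replicates. The other 3 of the 10, rpl32, rps19 and rps15a, had share ratios of 1.06, 1.02 and 1.04.

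On the small subunit, the lowest member relative to the set was rps20 (ENSDARG00000036044), which encodes a protein of the 40S head. Its level was 10096 CPM in mutant and 10536 CPM in WT, a ratio of 0.958 (0.952 to 0.965), and its share ratio was 0.861. The share ratio was below 1 in 11 of 11 identity groups, down to 0.766 in the cells marked by fn1b and tgm2l, where the level was 9730 CPM in mutant and 11523 CPM in WT. Here and below, some members were named for their high or low share ratio over all cells. The groups are parts of those cells, so the group counts of such members partly restate that ratio. In the matn1-high cells rps20 stood at 10428 CPM in mutant and 11021 CPM in WT.

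The most abundant 40S member was rps2 (ENSDARG00000077291), with 14523 CPM in mutant and 13620 CPM in WT, a ratio of 1.07. At the other end of the subunit was rps18 (ENSDARG00000100392), with 6249 CPM in mutant and 5156 CPM in WT, a ratio of 1.21 and a share ratio of 1.09, above 1 in 11 of 11 groups.

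On the large subunit, rpl6 (ENSDARG00000058451) had the highest ratio, with 4158 CPM in mutant and 3310 CPM in WT, a ratio of 1.26 (1.24 to 1.27). It was followed by rpl38 (ENSDARG00000006413), with 7318 CPM in mutant and 5860 CPM in WT, a ratio of 1.249 (1.24 to 1.26). In mice, Rpl38 is known from a tail and skeletal patterning mutant in which translation of Hox mRNAs is impaired. Each of these had a share ratio above 1 in 11 of 11 identity groups, from 1.08 to 1.17 for rpl6 and from 1.09 to 1.15 for rpl38. Both genes were named for this ratio over all cells, which the groups divide, so the group counts partly restate it.

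The next were rpl23a, with 4432 CPM in mutant and 3571 CPM in WT, and rpl13, with 7258 CPM in mutant and 5861 CPM in WT. In people, variants of RPL13 cause a skeletal dysplasia. Their ratios were both 1.24, and their share ratios of 1.12 and 1.11 were above 1 in 11 of 11 groups. Of the abundant members in all, 21 had a share ratio above 1 in every identity group and 11 in none. Other genes were not counted by this rule.

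Besides RPL41, the abundant 60S members with the lowest share ratios included rpl29 and rpl11. The gene rpl29, whose loss makes mice small, stood at 5567 CPM in mutant and 5563 CPM in WT, and its share ratio of 0.899 was below 1 in 11 of 11 groups. The gene rpl11, whose protein with that of rpl5 can bind and restrain Mdm2, stood at 6893 CPM in mutant and 6740 CPM in WT, a share ratio of 0.919. The abundant short-protein genes rpl37 (ENSDARG00000034291) and rpl39 had 10867 and 10699 CPM in mutant, against 10105 and 9853 CPM in WT.

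The stalk is the flexible arm of the 60S subunit that recruits elongation factors. Its base protein gene rplp0 stood at 9936 CPM in mutant and 9192 CPM in WT, a ratio of 1.08. The arm gene rplp1 stood at 13146 CPM in mutant and 12635 CPM in WT, a ratio of 1.04, and its share ratio was below 1 in 11 of 11 groups. The partner genes rplp2 and rplp2l differed from each other: rplp2 stood at 7418 CPM in mutant and 6415 CPM in WT, a ratio of 1.16, whereas rplp2l stood at 8434 CPM in mutant and 8128 CPM in WT, a ratio of 1.04.

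The composition of the set varied little between the marker-gated groups. A member was counted as deviating where its share of ribosomal protein UMIs lay at least 25% above, or at least 20% below, its share in all cells in at least 1 group, in the same direction in both libraries. By this rule 4 of 83 members deviated, where 96.3% of all 6855 genes did. Group counts below 3 were set to 3. In small groups this floor, or scatter of low counts, can carry a gene of few UMIs past the threshold. The 96.3% is raised by this to an extent that was not measured. Of the 80 abundant members 1 deviated, where 82.1% of the 190 other abundant genes did. All genes were measured per ribosomal protein UMI. The other genes thus also carry the groups' differences in ribosomal protein share, and part of the contrast is built in. Of the 4 members, 3 were the low entries rps19bp1, rpl7l1 and the second rpl37, and the remaining one was rplp2. The spread of an abundant member's log2 share over the identity groups, averaged over libraries, was 0.15 at the median and ran over 0.063 to 0.66.

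The stalk gene rplp2 had the widest spread, 0.66. In the cells marked by fn1b and tgm2l, which encode fibronectin and a transglutaminase, its log2 deviation was 0.39 in mutant and 0.40 in WT. In these cells it stood at 9566 CPM in mutant and 8420 CPM in WT. In the ccl25b, cxcl12a and rgs5a cells the log2 deviation was -0.25 in mutant and -0.28 in WT, with levels of 5981 CPM in mutant and 5256 CPM in WT.

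The next widest was rpl22l1, with a spread of 0.48. Its log2 deviation was lowest in the ccl25b, cxcl12a and rgs5a cells, -0.44 in mutant and -0.28 in WT, and it was also low in the type I collagen cells, -0.39 in mutant and -0.19 in WT. In the hsp70-high cells it was -0.38 in mutant and -0.15 in WT. In the six2a cells, marked by a homeobox gene of facial mesenchyme, it was 0.21 in mutant and 0.04 in WT.

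The 40S gene rps27.2 was highest in the mmp13b cells, with log2 deviations of 0.25 in mutant and 0.36 in WT, and had a spread of 0.40. Averaged over libraries, the 60S genes rpl12 and rpl3, with spreads of 0.32 and 0.29, were both lowest in the col10a1a cells. In WT alone rpl12 was lowest in the epyc cells, at -0.13. In the col10a1a cells rpl12 had log2 deviations of -0.14 in mutant and -0.09 in WT, and rpl3 of -0.19 in mutant and -0.15 in WT. In the type I collagen cells rpl12 had 0.18 in mutant and 0.22 in WT, and rpl3 0.13 in mutant and 0.12 in WT.

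How far a group's composition was alike in the 2 libraries varied by group. Pearson's r between the mutant and WT log2 deviations over the 80 abundant members was 0.83 in the matn1-high cells, 0.83 in the ccl25b, cxcl12a and rgs5a cells, 0.82 in the type I collagen cells and 0.81 in the fn1b and tgm2l cells. It was 0.70 to 0.77 in the col10a1a cells, the epyc cells and the cells that passed no threshold. It was 0.59 in the mmp13b cells, 0.52 in the matn1-moderate cells and 0.51 in the mgp and f13a1b cells, and lowest in the six2a cells, 0.37, which had 113 mutant and 62 WT cells. These are correlations across genes, which share the group's cells and are not independent.

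Several members have a paralogue kept from genome duplication or older copies, and the share of a pair held by one copy does not depend on how other genes scale. Near-identical copies can exchange reads in counting, so these shares are uncertain to that extent. For the rplp2 pair, rplp2l held 53.2% (53.0 to 53.4) of the pair in mutant and 55.9% (55.7 to 56.1) in WT. It was lower in mutant in 10 of 11 identity groups, with intervals apart in 8 of them. The exception was the mmp13b cells, with 50.5% in mutant and 47.7% in WT.

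Across groups the rplp2l share was lowest in the col10a1a cells in mutant, 42.9%, against 51.3% in the same cells of WT, and lowest in the fn1b and tgm2l cells in WT, 47.3%, against 43.5% in the same cells of mutant. It was highest in the ccl25b, cxcl12a and rgs5a cells of both libraries, 58.0% in mutant and 61.4% in WT. The pair thus leaned to rplp2l in some cell groups and to rplp2 in others, in both libraries.

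For the rpl22 pair, rpl22l1 held 29.0% (28.7 to 29.3) in mutant and 32.6% (32.2 to 32.9) in WT. In mammals Rpl22 is known to repress the expression of Rpl22l1. The share was lower in mutant in 11 of 11 identity groups, with intervals apart in 8. It ranged over the groups from 21.3% to 32.5% in mutant and from 26.2% to 34.5% in WT. The level of rpl22 was 4248 CPM in mutant and 3518 CPM in WT, and that of rpl22l1 was 1738 CPM in mutant and 1698 CPM in WT.

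**Figure D4:**
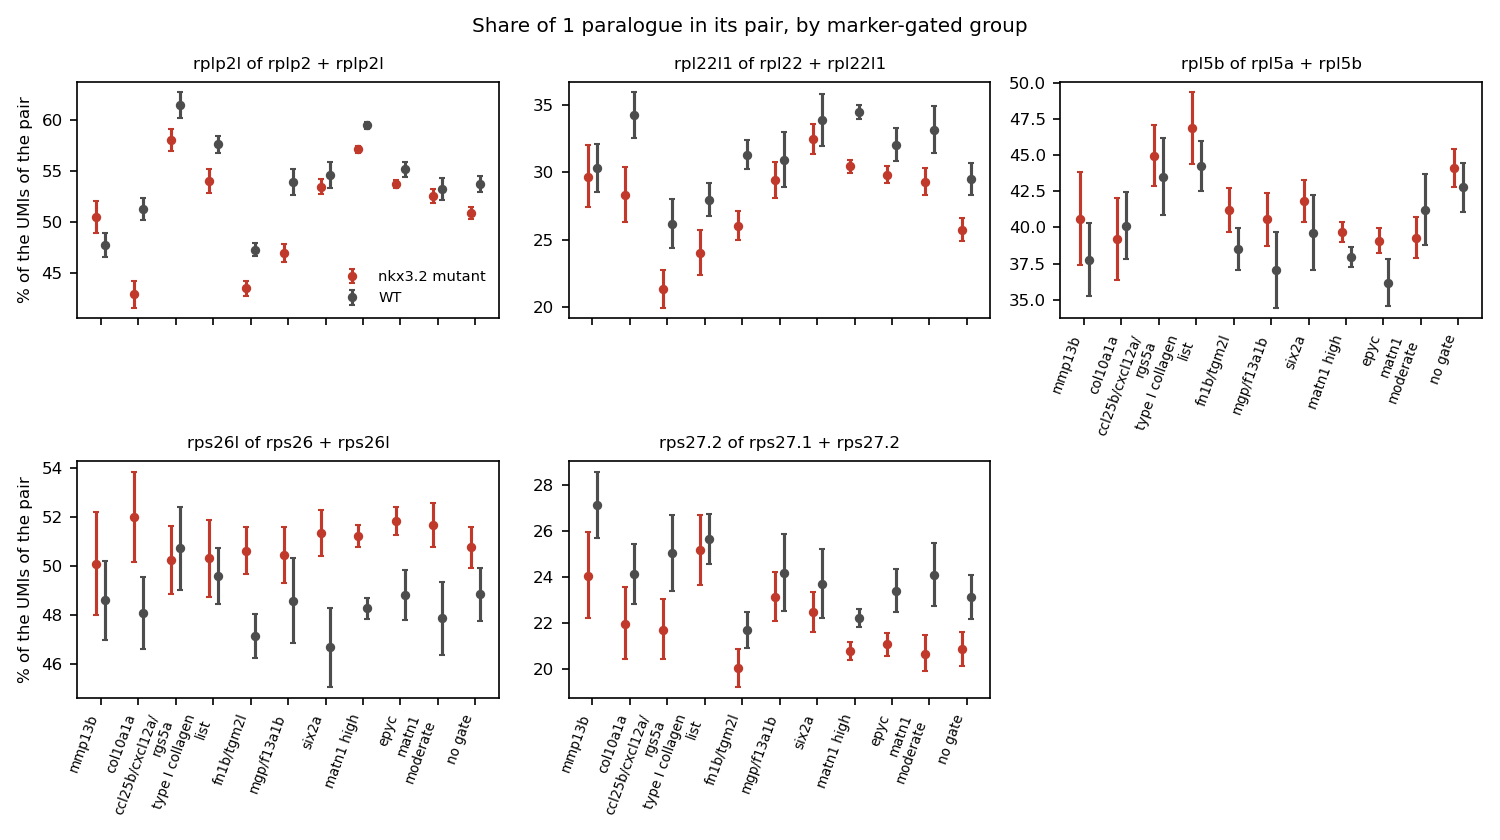
Share of a paralogue pair's UMIs (%) held by one copy in the 11 identity groups, for 5 pairs, with mutant points in red left of WT points in grey; bars are 95% binomial intervals of counting error, and each panel has its own axis, which does not start at 0. The rpl22l1 and rps27.2 shares are lower in mutant in all 11 groups, and the rplp2l share in 10.

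For the rps27 pair, rps27.2 held 21.3% in mutant and 23.1% in WT, lower in mutant in 11 of 11 groups, with intervals apart in 6. The 2 other pairs leaned the other way. The rps26l share was 51.2% in mutant and 48.4% in WT, higher in mutant in 10 of 11 groups, with intervals apart in 7. The rpl5b share was 40.7% in mutant and 39.2% in WT, higher in 9 of 11 groups, with intervals apart in only 2. In the rpl7 pair, rpl7l1 held 0.351% in mutant and 0.335% in WT, with overlapping intervals.

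Gene lists around the ribosome were then set beside the set. Of the listed elongation factor genes, 6 of 9 measured were higher in mutant, with a median log2 ratio of 0.16. None of the 9 was an eEF1A gene. The eEF1 complex gene eef1g stood at 3971 CPM in mutant and 3459 CPM in WT, a ratio of 1.15, and eef1b2 at 3807 CPM in mutant and 3418 CPM in WT, a ratio of 1.11, both near the 1.11 of the ribosomal proteins. The translocase gene eef2b stood at 1857 CPM in mutant and 1982 CPM in WT, a ratio of 0.937.

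Of other genes whose mRNAs are known as TOP mRNAs, 10 of 17 were higher, with a median of 0.09. They included naca, of the nascent polypeptide-associated complex, with 3219 CPM in mutant and 2568 CPM in WT. The gene gnb2l1, whose protein Rack1 sits on the 40S subunit and which the naming rule did not take, stood at 4342 CPM in mutant and 3868 CPM in WT, a ratio of 1.12. The gene tpt1 stood at 6403 CPM in mutant and 6028 CPM in WT. Of initiation factor genes 24 of 44 were higher, with a median of 0.07, among them pabpc1a, the poly(A) binding protein, with a ratio of 1.04. The counts of higher genes in these lists are read against the 40.3% of all genes. In the matn1-high cells 6 of 8 elongation and 26 of 41 initiation factor genes were higher, where 44.9% of all genes were. In the type I collagen cells it was 3 of 7 and 11 of 27, where 36.2% of all genes were. The list medians there were -0.008 and -0.04.

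Genes of ribosome biogenesis were higher more often, 73 of 88 measured, against 40.3% of all genes, with a median log2 ratio of 0.35. Of the 88, 46 were higher by at least 25%, where 19.6% of all genes were. The 60S assembly factor rsl24d1 stood at 1196 CPM in mutant and 811 CPM in WT, a ratio of 1.48 (1.44 to 1.51), and nsa2, of the same pathway, at 883 CPM in mutant and 692 CPM in WT, a ratio of 1.28. The transcription factor gene mycb had a ratio of 1.43. The nucleolar gene ncl had a ratio of only 1.05, and fbl, of the rRNA methyltransferase fibrillarin, a log2 ratio of -0.44. In the matn1-high cells 43 of 56 were higher, with a median of 0.38, where 44.9% of all genes were higher. In the type I collagen cells only 11 were measured, of which 5 were higher, with a median of -0.03, where 36.2% of all genes measured there were higher and their median was -0.16.

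The mitochondrial ribosome, a separate particle coded by other nuclear genes, had 48 of 70 measured genes higher, with a median of 0.15. In the matn1-high cells 26 of 45 were higher, with a median of 0.095, where 44.9% of all genes were higher. There 7 of the 45 were higher by at least 25%, where 20.2% of all genes measured in those cells were. Another 10 of the 45 were lower by at least 20%, where 29.1% of all genes measured in those cells were. Over all cells, 59.7% of the 6855 genes were lower in mutant and 35.8% lower by at least 20%. The genes of the mitochondrial genome were lower in 13 of 13 cases, 12 of them by at least 20%, with a median of -0.60. The cartilage matrix list was lower in 23 of 26, 18 of them by at least 20%, with a median of -0.56. Its most abundant gene, col2a1a, stood at 8051 CPM in mutant and 13247 CPM in WT, and ucmaa had the lowest log2 ratio of the list, -1.31. The list of chaperones and other genes of protein folding in the endoplasmic reticulum was lower in 16 of 16, 15 of them by at least 20%, with a median of -1.12.

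A list of genes that restrain mTORC1 or act with it was mostly higher, 11 of 14, where 40.3% of all genes were higher. Its median was 0.43. In the matn1-high cells 8 of 9 were higher with a median of 0.13, where 44.9% of all genes were higher. Over the other settings run in all cells the list median lay between 0.32 and 0.80. Its eIF4E-binding protein genes were also counted among the initiation factors above. The translation repressor genes eif4ebp3 and eif4ebp3l stood at 627 and 490 CPM in mutant, against 195 and 202 CPM in WT, ratios of 3.21 and 2.43. The gene sesn1 stood at 193 CPM in mutant and 41.2 CPM in WT, a ratio of 4.70. Some other members did not share this. The gene eif4ebp2 had 203 CPM in mutant and 204 CPM in WT. The gene ulk1a, a kinase gene of autophagy, had 67 UMIs in mutant and 116 in WT, a log2 ratio of -1.02. The gene ulk2 of the same list went the other way, with 408 UMIs in mutant and 89 in WT, a log2 ratio of 1.97. The higher ribosomal protein share and the higher repressor mRNAs stood side by side in the mutant library, and protein synthesis was not measured.

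**Figure D5:**
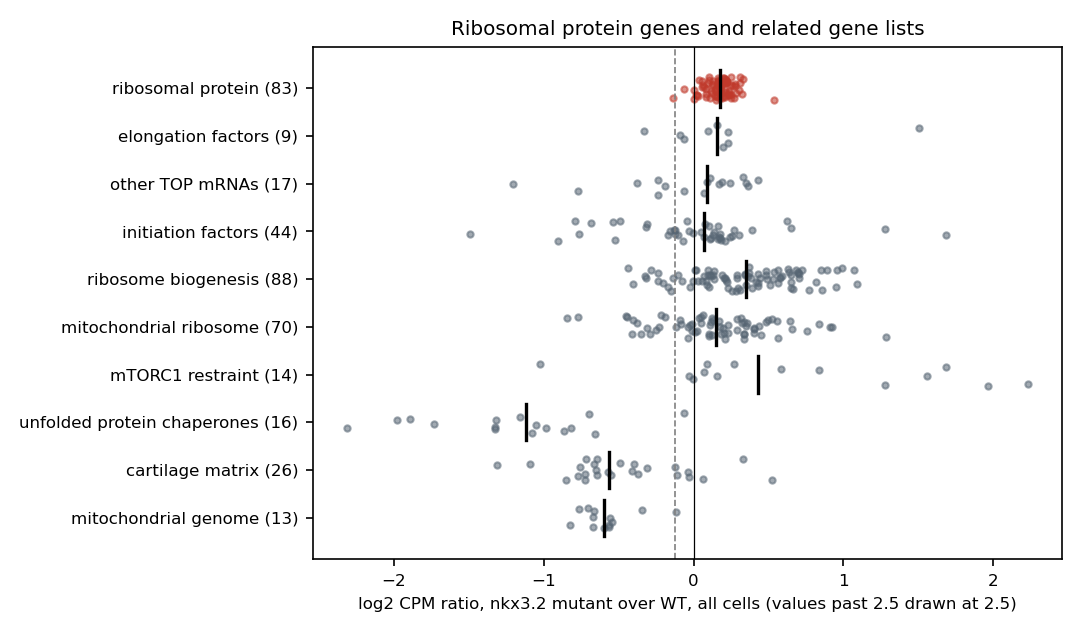
Log2 CPM ratio of mutant over WT in all cells for each measured gene (point) of the ribosomal protein set and of 9 related lists, with the number of genes in parentheses, the list median as a black bar and the median of all 6855 genes as a dashed line at -0.13. The 83 ribosomal protein genes form the narrowest cloud, with a median of 0.17, and the lists of chaperones, matrix and mitochondrial genome genes lie to the left.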

How the data were processed

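The values are UMI counts for each gene in each cell, which the authors produced with Cell Ranger and deposited, per the submitters' processing notes; its version and the genome build are not given in the sources used here. Counts came as whole numbers, and gene symbols are those of the files. All 84 member IDs were found in the zebrafish gene name table, 74 under the same name. Requiring 500 UMIs, 300 genes and a mitochondrial share of 20% or less left out 0 cells. No doublet caller was run, and leaving out the 5% of cells with most UMIs stood in for one.

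Counts were summed per library and marker-gated group. The thresholds, in UMIs of the markers per 10000, were osteoblast markers 10, mmp13b 20, col10a1a 20, ccl25b with cxcl12a and rgs5a 20, type I collagen list 40, fn1b with tgm2l 40, mgp with f13a1b 20, six2a 6, matn1-high 150, epyc 30 and matn1-moderate 40, in this order, and 15 for S phase, 5 for G2 with mitosis, 8 for sesn1 and 60 for hsp70. They were set after seeing marker levels. The members, lists and tests were chosen with earlier results of these data known.

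CPM is a gene's UMIs scaled to a total of 1000000 in its library or group. Intervals are 95%: Clopper-Pearson for shares, and for ratios the exact binomial interval given the 2 counts' sum. UMI ratios needed at least 100 UMIs over both libraries. With 1 library per genotype no test was run. Named members were the 10 most abundant, the 8 highest and 8 lowest share ratios and the 8 with the widest spread over groups. Their paralogues and up to 4 of the most abundant genes per list were added. The genes fbl, ulk1a, ulk2, ucmaa and the ribosomal protein genes missed by the naming rule were chosen after their values were seen. One pair of members is counted but not reported singly here. On simulated counts for 6855 genes, true folds of 2, 1.25, 0.8 and 0.5 were recovered at 1.97, 1.24, 0.79 and 0.493. The simulated counts held counting error only, so this checks the arithmetic and not differences between libraries. A difference of 25% upward or 20% downward was the threshold for calls. Alternatives changed the denominator, cell filter, depth (3000 UMIs per cell), group mix, thresholds, gene minimum and scaling. Python 3.11.15, numpy 2.4.6, scipy 1.17.1, pandas 2.3.3, matplotlib 3.10.9, R 4.3.3 and edgeR 4.0.16 (TMM factors only) were used.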

Additional observations from a re-analysis of the deposited data

Results flagged for a closer look

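Some contrasts ran in opposite directions, either in the 2 libraries or in different cell groups. None was tested, since each side is 1 library. The share of ribosomal protein UMIs in S phase cells, relative to other cells, was lower in mutant and higher in WT, and the mutant contrast minus the WT contrast was -2.44 points. For cells in G2 or mitosis it was -2.11 points. For sesn1-high cells it was 2.14 points, with the depths of these cells given above. Their depth differed between the libraries. Dividing cells were deeper than the other cells, by differing amounts in the 2 libraries. The part of depth in any of these contrasts was not tested.

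Of the members reported singly, 7 had a mutant over WT CPM ratio whose interval lay above 1 in one identity group and below 1 in another. Other genes were not counted by this rule. In 6 of them the highest ratio was in the mmp13b cells, the group of 41 mutant and 79 WT cells with the lowest ribosomal protein share: rplp2l had 1.13 there and 0.923 in the col10a1a cells, rplp1 1.14 and 0.955, and rpl11 1.09 and 0.928 in the same groups. The others of the 6 were rps20, with 1.09 in the mmp13b cells and 0.844 in the fn1b and tgm2l cells, RPL41, with 1.11 in the mmp13b cells and 0.960 in the epyc cells, and rpl22l1, with 1.205 in the mmp13b cells and 0.859 in the type I collagen cells. The gene rpl29 had 1.05 in the matn1-moderate cells and 0.965 in the epyc cells. The set's summed ratio was 1.164 in the mmp13b cells, the highest of the 11 identity groups, and 1.15 in the matn1-moderate cells. It was 1.09 in the col10a1a and epyc cells, 1.102 in the fn1b and tgm2l cells and 1.07 in the type I collagen cells. The share ratio was above 1 in 0 of 11 groups for rplp2l, rps20, rplp1, rpl11, RPL41 and rpl29, and in 2 for rpl22l1. The part of the set's ratio in these crossings was not tested.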

How the results depend on the processing

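No paired analysis was possible because each genotype has 1 library and the labels carry no replicate numbers. The difference in median share, 5.24 points, was 5.19 without mitochondrial genes in the denominator, 4.93 without matrix genes and 4.87 without both. It was 5.49 from summed UMIs, 5.13 in cells with 3000 UMIs or more and a mitochondrial share of 10% or less, 5.36 without the deepest 5% of cells, 5.18 with cells thinned to 3000 UMIs (173 mutant and 255 WT cells dropped) and 4.86 at the mean mix of groups. Thinning draws a cell's UMIs at random and leaves its expected share unchanged, so it does not adjust for the relation of share to depth. Chosen after seeing the data were the mean mix of depth bins, 4.51, and leaving out sesn1-high and hsp70-high cells, 5.16. Between 75 and 83 members were higher in mutant under all settings run, and every compared group stayed higher.

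TMM scaling moved the median of all genes by 0.14 on the log2 scale and scaling to other UMIs by 0.16, with 83 of 83 members higher under each. The number of members at least 25% above or 20% below the summed ratio, 1, was 2 under the stricter cell filter, without the deepest cells and at the mean depth mix. It was 0 with at least 1000 UMIs per gene, with a threshold of 50% and without sesn1-high and hsp70-high cells. The number that deviated between groups, 4, was 2 at 0.5 times the marker thresholds and with a threshold of 50%, and 1 with at least 1000 or 10000 UMIs per gene. Of 330 alternative values for 33 named members, 267 moved less than counting error, and rpl12 alone changed side, from -0.03 to 0.01 on the log2 scale of its share ratio. Depth limits rps8b, rps19bp1, rpl7l1 and the second rpl37.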
